A study of Mus musculus with 8 samples.

Results

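The genes described here are the 10 cyclins, cyclin-dependent kinases and inhibitors that control the G1 phase of the cell cycle: Ccnd1, Ccnd2, Ccnd3, Ccne1, Ccne2, Cdk2, Cdk4, Cdk6, Cdkn1a and Cdkn1b. They were taken by name and found through their Ensembl identifiers among the 52636 genes of the count table, and all 10 were among the 13847 genes with enough counts to be tested. The RNA came from primary microglia, the resident macrophages of the brain, of WT mice whose strain the labels give as C57BL/6 and the methods of the study as C57BL/6N. The cells had been shaken off mixed glial cultures of neonatal (P2 to P3) brain and kept in a medium of DMEM and 10% FBS, to which CSF-1 was added at 10 ng/ml, a growth factor that microglia need to survive and divide. In 4 cultures the medium held 5 µg/ml LPS, a bacterial lipopolysaccharide, for 24 h, and 4 cultures received vehicle for the same time. RNA was sequenced from each culture as a bulk sample, and the comparison asks how LPS changed the mRNA of microglia. The labels call the 4 cultures of each treatment biological replicates and do not say whether cultures with the same number came from the same mice.

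A cell in G1 decides whether to copy its DNA. Growth factor signals raise a D-type cyclin, which binds CDK4 or CDK6, and these kinases begin to phosphorylate the retinoblastoma proteins that hold E2F transcription factors in check, a step that cyclin E with CDK2 completes, and E2F then drives the genes of S phase. CDK inhibitors of the CIP/KIP family, among them p21 (Cdkn1a) and p27 (Cdkn1b), bind these complexes, and in macrophages CSF-1 is the signal that brings cyclin D up, whereas LPS is known to stop CSF-1-driven division.

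The 4 vehicle libraries held 22796052, 22595657, 26129375 and 21370879 counts and the 4 LPS libraries 20071921, 22529706, 30604447 and 22581615 counts. Levels are given as CPM, the usual unit of counts relative to library size, with each library size scaled by its TMM factor, which allows for a few abundant genes taking a large share of the reads. These factors were 1.25, 1.28, 1.21 and 1.32 in vehicle replicates 1 to 4 and 0.833, 0.816, 0.701 and 0.819 in LPS replicates 1 to 4. Scaling by library totals alone lowers LPS values relative to vehicle values, and it moved the median log2 fold change of all tested genes from −0.11 to −0.79. Counts of the 10 genes in a library ran from 21 for Ccne2 in LPS replicate 4 to 27947 for Cdkn1a in LPS replicate 3. Libraries with the same replicate number are called pairs here. Some libraries lay at an end of their group in many of the 10 genes. Vehicle replicate 1 was the lowest of its group in 6 and vehicle replicate 3 the highest in 6, while LPS replicate 1 was the lowest of its group in 5 and LPS replicate 3 the highest in 7. The markers of cycling cells summed to 160.2 CPM in vehicle replicate 1 against 295 to 354 in the other vehicle libraries.

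After LPS, Cdkn1a, Ccnd2 and Ccnd3 rose, and Ccnd1, Ccne2, Cdk2 and Cdk4 fell. Thus 7 of the 10 genes passed an adjusted p of 0.05 with edgeR, against 64.1% of all tested genes. Log2 fold changes are those of LPS over vehicle, with their standard error (SE). The 3 that rose compare with 30.3% of tested genes that rose and the 4 that fell with 33.8%. In the same 7 genes the CPM of the 4 LPS libraries and the 4 vehicle libraries did not overlap, which also held for 60.2% of all tested genes, so the share that changed was close to that of all tested genes. Ccne1, Cdk6 and Cdkn1b did not pass the test. With library totals in place of TMM, a scaling chosen after the data were seen, 1988 genes were higher and 8457 lower in place of 4191 and 4686, and 8 of the 10 genes were called, 2 higher and 6 lower. Because the samples are bulk RNA, fewer cells of a type and less RNA per cell cannot be told apart in any of these values.

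**Figure D1:**
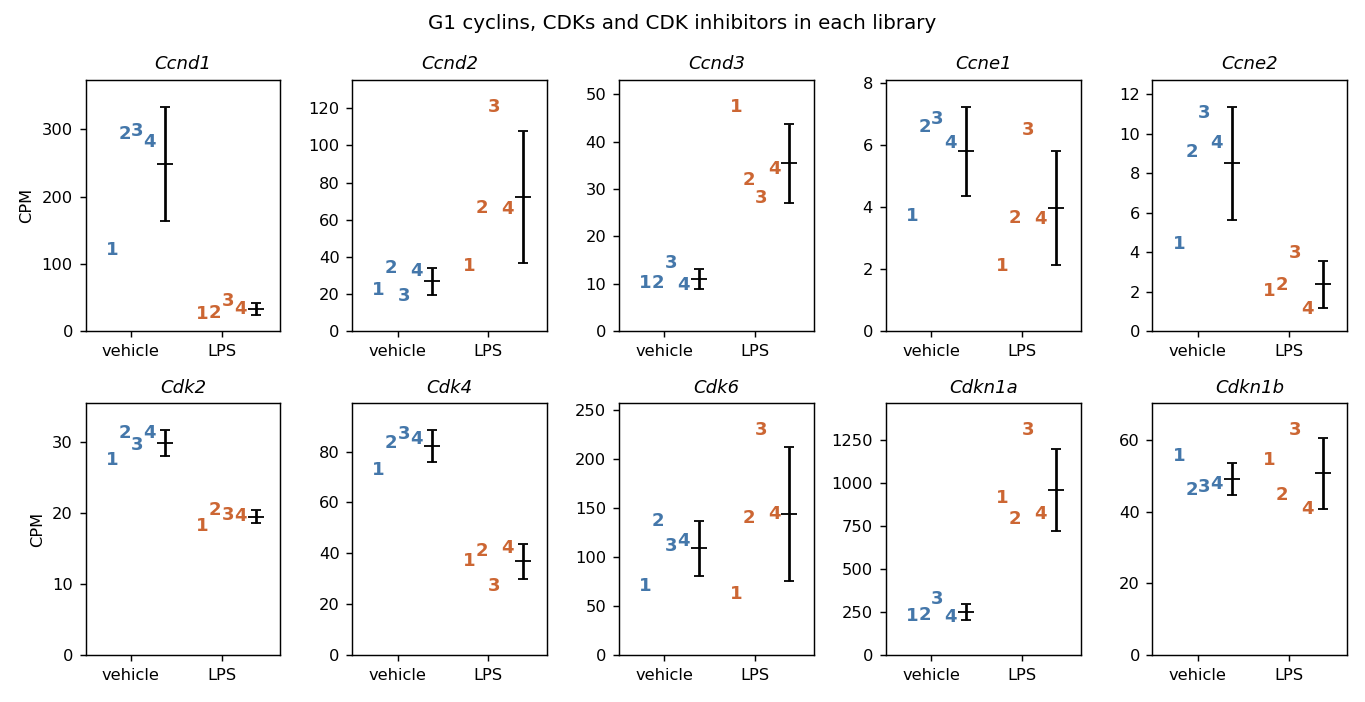
Level of each of the 10 genes in every library, in CPM on a linear axis that starts at 0. Numbers are the replicates of vehicle (blue) and LPS (orange) cultures, and the black mark and bar beside each group are its mean and SD (n = 4); Ccnd1 lies between 25.7 and 44.7 CPM after LPS, below all vehicle libraries, and Cdkn1a between 791 and 1303, above all of them.

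Cyclin D1, encoded by Ccnd1 (ENSMUSG00000070348, chromosome 7 from 144929931 to 144939925, minus strand), is the D-type cyclin that follows growth factor signals most closely. Ccnd1 stood at 121, 293, 298 and 281 CPM in vehicle replicates 1 to 4 and 25.7, 26.4, 44.7 and 32.8 CPM in LPS replicates 1 to 4. Vehicle replicate 1 stood well under the other vehicle cultures, and every LPS library lay below it. Its mean went from 248 ± 85.1 to 32.4 ± 8.82 CPM (SD, n = 4). Ccnd1 fell the most of the 10 genes, 7.65-fold (log2 fold change −2.94, SE 0.31, adjusted p = 2.93e-05 with edgeR, lower in 4 of 4 pairs), and without vehicle replicate 1 the log2 fold change was −3.14. The gene LTO1 on the opposite strand of the mouse genome GRCm38 overlaps 23.4% of the exonic bases of Ccnd1, so reads of both cannot be told apart if strand was not used in counting. Strand use is not stated, and the labels name a library kit that keeps strand while the methods of the study name one that does not. LTO1 itself was higher after LPS, with a log2 fold change of 1.26 (edgeR adjusted p = 3.60e-05, higher in 4 of 4 pairs), the opposite direction to Ccnd1.

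Ccnd2 (ENSMUSG00000000184, chromosome 6 from 127125162 to 127152193, minus strand) encodes cyclin D2. Its level was 22.3, 33.9, 18.7 and 32.2 CPM in vehicle replicates 1 to 4 and 35.1, 66.4, 121 and 66.0 CPM in LPS replicates 1 to 4. The groups did not overlap, but LPS replicate 1 lay just above the highest vehicle library and LPS replicate 3 far above the other LPS libraries. The mean was 26.8 ± 7.44 CPM in vehicle and 72.1 ± 35.6 CPM after LPS (SD, n = 4). Ccnd2 rose 2.70-fold (log2 fold change 1.43, SE 0.34, adjusted p = 0.00469 with edgeR, higher in 4 of 4 pairs), and without LPS replicate 3 the log2 fold change was 1.07. With library totals alone the log2 fold change was 0.71 and was not called (edgeR adjusted p = 0.0663, range over all alternatives 4.47e-05 to 0.0663). Of the exonic bases of Ccnd2, 7.87% lie in exons of Gm43126 or 9330179D12Rik on the opposite strand. Gm43126 had 0 counts in every library, and 9330179D12Rik, untested, had 1, 3, 3 and 0 counts in vehicle and 5, 15, 27 and 17 after LPS.

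Ccnd3 (ENSMUSG00000034165, chromosome 17 from 47505051 to 47599691, plus strand) encodes cyclin D3, the form most often kept in differentiated and non-dividing cells. Ccnd3 was measured at 10.1, 10.1, 14.3 and 9.84 CPM in vehicle replicates 1 to 4 and 47.4, 31.9, 28.2 and 34.2 CPM in LPS replicates 1 to 4. Its LPS libraries all lay above its vehicle libraries, and here LPS replicate 3 was the lowest and LPS replicate 1 the highest of the group, the reverse of their places in Ccnd2. On average Ccnd3 went from 11.1 ± 2.15 to 35.4 ± 8.37 CPM (SD, n = 4). The rise was 3.19-fold (log2 fold change 1.67, SE 0.19, adjusted p = 4.91e-05 with edgeR, higher in 4 of 4 pairs), and without vehicle replicate 3, the highest of its group, the log2 fold change was 1.89. Bysl, on the opposite strand over 4.11% of the exonic bases of Ccnd3, had a log2 fold change of −0.48.

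After LPS, Ccnd1 no longer made up most of the D-type cyclin mRNA. Levels of different genes were compared as counts divided by the length of all exons of a gene, 4709 bases for Ccnd1, 9409 for Ccnd2 and 8775 for Ccnd3. This length covers every annotated exon and can exceed that of the mRNA made in these cells, which was not determined. Comparisons between genes depend on it. On that scale Ccnd1 made up 88.0, 92.9, 94.6 and 92.9% of the D-type cyclin mRNA in vehicle replicates 1 to 4, and 37.4, 34.4, 37.2 and 39.0% in LPS replicates 1 to 4. The groups were far apart and the share of Ccnd1 differed little within each, with means of 92.1% ± 2.86 and 37.0% ± 1.89 (SD, n = 4). The share of Ccnd2 was 8.10, 5.38, 2.97 and 5.33% in vehicle and 25.6, 43.3, 50.3 and 39.2% after LPS. The share of Ccnd3 was 3.93, 1.73, 2.44 and 1.74% in vehicle and 37.0, 22.3, 12.6 and 21.8% after LPS. The LPS cultures differed in how the rest was divided, from more Ccnd3 than Ccnd2 in LPS replicate 1 to 50.3% Ccnd2 against 12.6% Ccnd3 in LPS replicate 3. Per exonic length, the rises did not make up for the fall. The D-type cyclins together went from 56.8 ± 18.4 to 18.6 ± 4.84 CPM per kilobase of exon (SD, n = 4). The highest LPS library was at 25.5 and the lowest vehicle library at 29.2. Not divided by length, the summed CPM of the groups overlapped. Ccnd1, Ccnd2 and Ccnd3 had 121, 22.3 and 10.1 CPM in vehicle replicate 1, less together than the 44.7, 121 and 28.2 CPM in LPS replicate 3. No test was run on these shares and sums. Without dividing by length, Ccnd1 made up 85.7% of the counts of the 3 genes in vehicle and 23.2% after LPS.

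**Figure D2:**
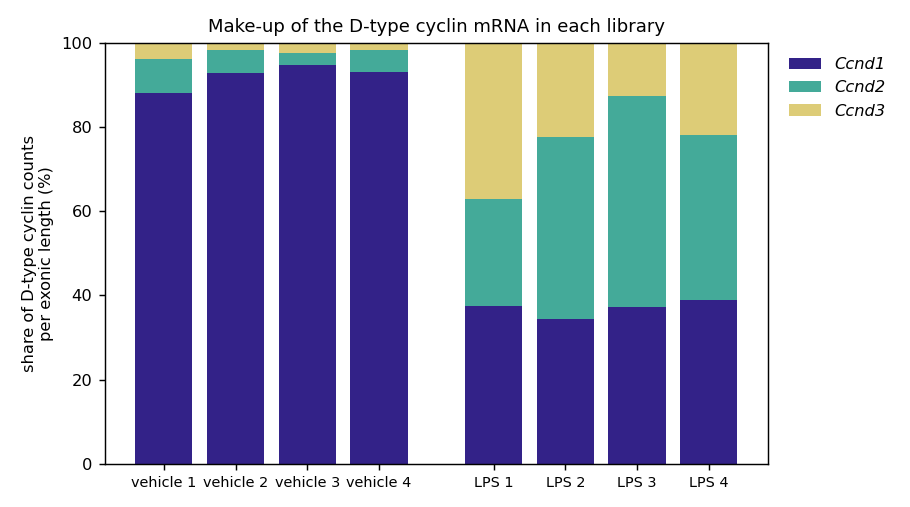
Share of Ccnd1, Ccnd2 and Ccnd3 in the D-type cyclin mRNA of each library, in percent of counts divided by exonic length. Each bar is 1 library; Ccnd1 takes 88.0% to 94.6% of every vehicle bar and 34.4% to 39.0% of every LPS bar.

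The E-type cyclins partner with CDK2 late in G1, and both genes are classical targets of E2F. Ccne2 (ENSMUSG00000028212, chromosome 4 from 11191351 to 11204779, plus strand) was at 4.41, 9.06, 11.04 and 9.52 CPM in vehicle replicates 1 to 4 and 2.03, 2.34, 3.96 and 1.14 CPM in LPS replicates 1 to 4. All LPS libraries lay below all vehicle libraries, with LPS replicate 3 close under vehicle replicate 1. The mean went from 8.51 ± 2.86 to 2.37 ± 1.18 CPM (SD, n = 4). Ccne2 fell 3.56-fold (log2 fold change −1.83, SE 0.39, adjusted p = 0.00232 with edgeR, lower in 4 of 4 pairs). Ints8, on the opposite strand, overlaps 17.4% of the exonic bases of Ccne2, and its log2 fold change was 0.29.

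Ccne1 (ENSMUSG00000002068, chromosome 7 from 38097984 to 38107534, minus strand), the other E-type cyclin gene, was measured at 3.71, 6.57, 6.85 and 6.07 CPM in vehicle replicates 1 to 4 and 2.09, 3.65, 6.48 and 3.62 CPM in LPS replicates 1 to 4. The groups overlapped, LPS replicate 3 lying above vehicle replicates 1 and 4, whereas the other LPS libraries lay below every vehicle library. With the replicates unpaired Ccne1 did not pass (log2 fold change −0.54, SE 0.33, adjusted p = 0.174 with edgeR, lower in 4 of 4 pairs, 95% confidence interval −1.29 to 0.20). In the pairs, the log2 ratios of Ccne1 were −0.82, −0.85, −0.08 and −0.74 in replicates 1 to 4. With the replicate number as a block it passed, with a log2 fold change of −0.61 (edgeR adjusted p = 0.0340, range over all alternatives 0.00442 to 0.354), as it did without LPS replicate 3 (−0.88) and with library totals alone (−1.25). Without LPS replicate 1 the log2 fold change of Ccne1 shrank to −0.33 and did not pass.

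CDK4 is a kinase that D-type cyclins activate. Cdk4 (ENSMUSG00000006728, chromosome 10 from 127063534 to 127067920, plus strand) stood at 72.8, 83.5, 86.7 and 85.1 CPM in vehicle replicates 1 to 4 and 36.9, 41.0, 27.0 and 42.1 CPM in LPS replicates 1 to 4. The vehicle libraries lay close together, LPS replicate 3 was the lowest of its group, and the groups were far apart. The mean went from 82.0 ± 6.29 to 36.8 ± 6.87 CPM (SD, n = 4). Cdk4 fell 2.23-fold (log2 fold change −1.16, SE 0.14, adjusted p = 8.18e-05 with edgeR, lower in 4 of 4 pairs). Tspan31 overlaps 19.7% of the exonic bases of Cdk4 on the opposite strand and was higher after LPS, with a log2 fold change of 1.24 (edgeR adjusted p = 1.44e-05, higher in 4 of 4 pairs).

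Cdk6 (ENSMUSG00000040274, chromosome 5 from 3341485 to 3531008, plus strand), the other kinase that D-type cyclins activate, was found at 70.4, 137, 111 and 116 CPM in vehicle replicates 1 to 4 and 61.6, 139.7, 229 and 144 CPM in LPS replicates 1 to 4. Replicate 1 was the lowest of both groups and LPS replicate 3 the highest of all, so that the LPS libraries spanned the whole range of the vehicle libraries. The mean was 109 ± 27.7 CPM in vehicle and 143 ± 68.4 CPM after LPS (SD, n = 4). Cdk6 did not pass the test (log2 fold change 0.40, SE 0.34, adjusted p = 0.326 with edgeR, higher in 3 of 4 pairs, 95% confidence interval −0.37 to 1.17), and its value rested on single libraries. The log2 fold change was 0.66 without LPS replicate 1 (edgeR adjusted p = 0.0434, range over all alternatives 0.0434 to 0.813) and did not pass at 0.09 without LPS replicate 3 or at 0.26 without vehicle replicate 1. With library totals alone its sign turned, to −0.31, which was still above the median of all genes on that scale. Gm17590, on the opposite strand over 2.63% of the exonic bases of Cdk6, did not pass (log2 fold change 1.00, SE 0.70, adjusted p = 0.231 with edgeR, higher in 4 of 4 pairs).

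CDK2, the partner of cyclin E, showed the smallest of the changes that passed. Cdk2 (ENSMUSG00000025358, chromosome 10 from 128697939 to 128705031, minus strand) was at 27.4, 31.1, 29.5 and 31.1 CPM in vehicle replicates 1 to 4 and 18.2, 20.4, 19.7 and 19.5 CPM in LPS replicates 1 to 4. Both groups were narrow, and no LPS library reached the lowest vehicle library. Its mean was 29.8 ± 1.79 CPM in vehicle and 19.5 ± 0.928 CPM after LPS (SD, n = 4). The fall was 1.53-fold (log2 fold change −0.61, SE 0.09, adjusted p = 3.25e-04 with edgeR, lower in 4 of 4 pairs), with log2 ratios from −0.67 to −0.58 in the 4 pairs. Pmel, untested, overlaps 0.547% of its exonic bases on the opposite strand, at 9, 5, 14 and 9 counts in vehicle and 3, 3, 7 and 4 after LPS. Since Cdk4 fell and Cdk6 did not pass, the ratio of Cdk6 to Cdk4 was also taken, per exonic length, a ratio chosen after the values were seen and not tested. It was 0.225, 0.380, 0.297 and 0.318 in vehicle replicates 1 to 4 and 0.388, 0.793, 1.97 and 0.791 in LPS replicates 1 to 4. Every LPS library had a higher ratio than every vehicle library, the lowest of them by little, and in LPS replicate 3 there was more Cdk6 than Cdk4 per exonic length.

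Of the CIP/KIP inhibitors, p21 is induced by p53 and by many stress and differentiation signals, and p27 is high in resting cells and is controlled largely through protein stability. Cdkn1a (ENSMUSG00000023067, chromosome 17 from 29090976 to 29100727, plus strand), the gene of p21, stood at 225, 231, 322 and 220.5 CPM in vehicle replicates 1 to 4 and 913, 791, 1303 and 818 CPM in LPS replicates 1 to 4. Replicate 3 was the highest library of both groups, and the lowest LPS library was above the highest vehicle library by a wide margin. The mean went from 249.8 ± 48.6 to 957 ± 237 CPM (SD, n = 4). Cdkn1a rose 3.83-fold, the largest rise of the 10 genes (log2 fold change 1.94, SE 0.20, adjusted p = 2.91e-05 with edgeR, higher in 4 of 4 pairs), and the log2 ratios of the 4 pairs lay between 1.78 and 2.02. On the log2 scale the rise was 1.25 with library totals alone and 2.14 without vehicle replicate 3. Without LPS replicate 3 the rise of Cdkn1a was 1.76, just under the 1.77 of Ccnd3. AC167363.2, on the opposite strand over 7.68% of its exonic bases, is absent from the count table, and no exon of another gene overlaps those of Ccne1 or Cdkn1b.

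Cdkn1b (ENSMUSG00000003031, chromosome 6 from 134920401 to 134925513, plus strand), the gene of p27, was at 55.7, 46.0, 47.0 and 47.9 CPM in vehicle replicates 1 to 4 and 54.6, 44.7, 62.8 and 41.0 CPM in LPS replicates 1 to 4. The groups overlapped, with LPS replicates 3 and 4 the highest and the lowest of the 8 libraries. The mean was 49.2 ± 4.42 CPM in vehicle and 50.8 ± 9.90 CPM after LPS (SD, n = 4). No change of Cdkn1b passed the test (log2 fold change 0.05, SE 0.14, adjusted p = 0.786 with edgeR, higher in 1 of 4 pairs), and the 95% confidence interval was −0.27 to 0.37. The sign of this small value turned with the scaling, to −0.11 under upper quartile normalization and −0.64 with library totals alone, which was called (edgeR adjusted p = 0.00105, range over all alternatives 0.00105 to 0.939) and lay above the median of all genes on that scale. Over the libraries left out in turn the value ran from −0.067 without LPS replicate 3 to 0.15 without LPS replicate 4.

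The mRNA of p21 relative to that of p27 does not depend on the scaling of the libraries. Per exonic length, Cdkn1a exceeded Cdkn1b by factors of 5.18, 6.43, 8.79 and 5.90 in vehicle replicates 1 to 4 and of 21.4, 22.7, 26.6 and 25.6 in LPS replicates 1 to 4. The groups were well apart. Relative to Cdk2, a kinase that p21 inhibits, Cdkn1a stood at 14.7 ± 3.06 in vehicle and 86.2 ± 21.5 after LPS (ratio per exonic length, SD, n = 4). These ratios were chosen after the values were seen and were not tested.

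Among the 10 genes, levels were ordered as CPM per kilobase of exon. In vehicle, Cdkn1a (70.3 ± 13.7, SD, n = 4) was first, followed by Ccnd1 (52.7 ± 18.1) and Cdk4 (25.2 ± 1.94), although neighbours overlapped. Ccnd1 reached 63.3 against a lowest Cdkn1a library of 62.0, and only its replicate 1 reached the range of Cdk4. Cdkn1b (10.8 ± 0.971), Cdk6 (7.76 ± 1.98), Cdk2 (4.79 ± 0.287) and Ccnd2 (2.84 ± 0.791) came next, each below the one before in all libraries. Ccne2 (2.43 ± 0.818), Ccne1 (2.18 ± 0.538) and Ccnd3 (1.26 ± 0.245) ended the order, and from Ccnd2 on the neighbours overlapped. After LPS, Cdkn1a (269 ± 66.7) stood far above the rest. Cdk4 (11.3 ± 2.12), Cdkn1b (11.2 ± 2.17), Cdk6 (10.3 ± 4.89), Ccnd2 (7.66 ± 3.79) and Ccnd1 (6.88 ± 1.87) followed, each overlapping its neighbour in this order. Ccnd3 (4.04 ± 0.954) came next, with every library below those of Ccnd1 but overlapping those of Ccnd2 and Cdk6, and it also overlapped Cdk2 (3.13 ± 0.149). Ccne1 (1.49 ± 0.688) and Ccne2 (0.678 ± 0.338) were the lowest and overlapped too.

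Other genes of G1/S control were followed in a list of 32, of which 31 were tested, and Cdkn1c, the gene of p57, had too few counts. With edgeR 8 rose and 17 fell, against 30.3% and 33.8% of all tested genes, and the median log2 fold change was −0.67 against −0.11 over all tested genes. The count of rises was 3 under upper quartile normalization and 2 with library totals alone. The INK4 inhibitors bind CDK4 and CDK6 and keep D-type cyclins off them. The INK4 gene Cdkn2c (p18) was at 13.5, 17.3, 25.8 and 22.2 CPM in vehicle replicates 1 to 4 and 0.838, 1.85, 2.29 and 1.57 CPM in LPS replicates 1 to 4. Cdkn2d (p19), of the same family, was at 9.10, 9.20, 13.6 and 8.13 CPM in vehicle replicates 1 to 4 and 32.9, 48.0, 53.8 and 46.7 CPM in LPS replicates 1 to 4. The groups of both genes were far apart, in opposite directions. Cdkn2c fell (log2 fold change −3.57, SE 0.31, adjusted p = 8.42e-06 with edgeR, lower in 4 of 4 pairs) and Cdkn2d rose (log2 fold change 2.18, SE 0.20, adjusted p = 1.29e-05 with edgeR, higher in 4 of 4 pairs). The other INK4 genes, Cdkn2a and Cdkn2b, were named after their values were seen. Cdkn2a fell (log2 fold change −1.87, SE 0.46, adjusted p = 0.00560 with edgeR, lower in 4 of 4 pairs). Cdkn2b, whose groups overlapped, rose (log2 fold change 0.69, SE 0.26, adjusted p = 0.0423 with edgeR, higher in 4 of 4 pairs). Per exonic length, Cdkn2d stood to Cdkn2c at 0.896 ± 0.215 in vehicle and at 50.6 ± 11.8 after LPS (ratio, SD, n = 4), untested like the other ratios.

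Ccna2, the cyclin A gene that follows cyclin E in S phase, ranged over 16.7 to 40.5 CPM in vehicle and 0.487 to 0.838 CPM after LPS. Its fitted fall was the largest of the 31 tested genes (log2 fold change −5.45, SE 0.34, adjusted p = 1.24e-06 with edgeR, lower in 4 of 4 pairs), at 14, 15, 17 and 9 counts in LPS replicates 1 to 4. E2f7, a repressor of the E2F family, fell as well (log2 fold change −5.34, SE 0.42, adjusted p = 5.21e-06 with edgeR, lower in 4 of 4 pairs), to 3, 2, 1 and 3 counts in LPS replicates 1 to 4. E2f7 fell more than Ccna2 without LPS replicate 1 (−5.55 against −5.51) and without LPS replicate 4 (−5.50 against −5.29). E2f2, an activator, also fell (log2 fold change −4.05, SE 0.73, adjusted p = 8.85e-04 with edgeR, lower in 4 of 4 pairs), and its log2 fold change was −5.39 without LPS replicate 3. Tfdp2, which encodes a partner of E2F proteins, fell (log2 fold change −3.65, SE 0.22, adjusted p = 8.92e-07 with edgeR, lower in 4 of 4 pairs), as did Cks1b, a subunit of cyclin-CDK complexes that helps SKP2 to mark p27 for destruction (log2 fold change −3.12, SE 0.37, adjusted p = 6.38e-05 with edgeR, lower in 4 of 4 pairs). E2f5, a factor bound by the pocket proteins p107 and p130, rose (log2 fold change 2.00, SE 0.12, adjusted p = 1.04e-06 with edgeR, higher in 4 of 4 pairs). Myc, which can induce D-type cyclin and Cdk4 transcription and was named after its values were seen, fell (log2 fold change −1.11, SE 0.33, adjusted p = 0.0141 with edgeR, lower in 4 of 4 pairs).

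**Figure D3:**
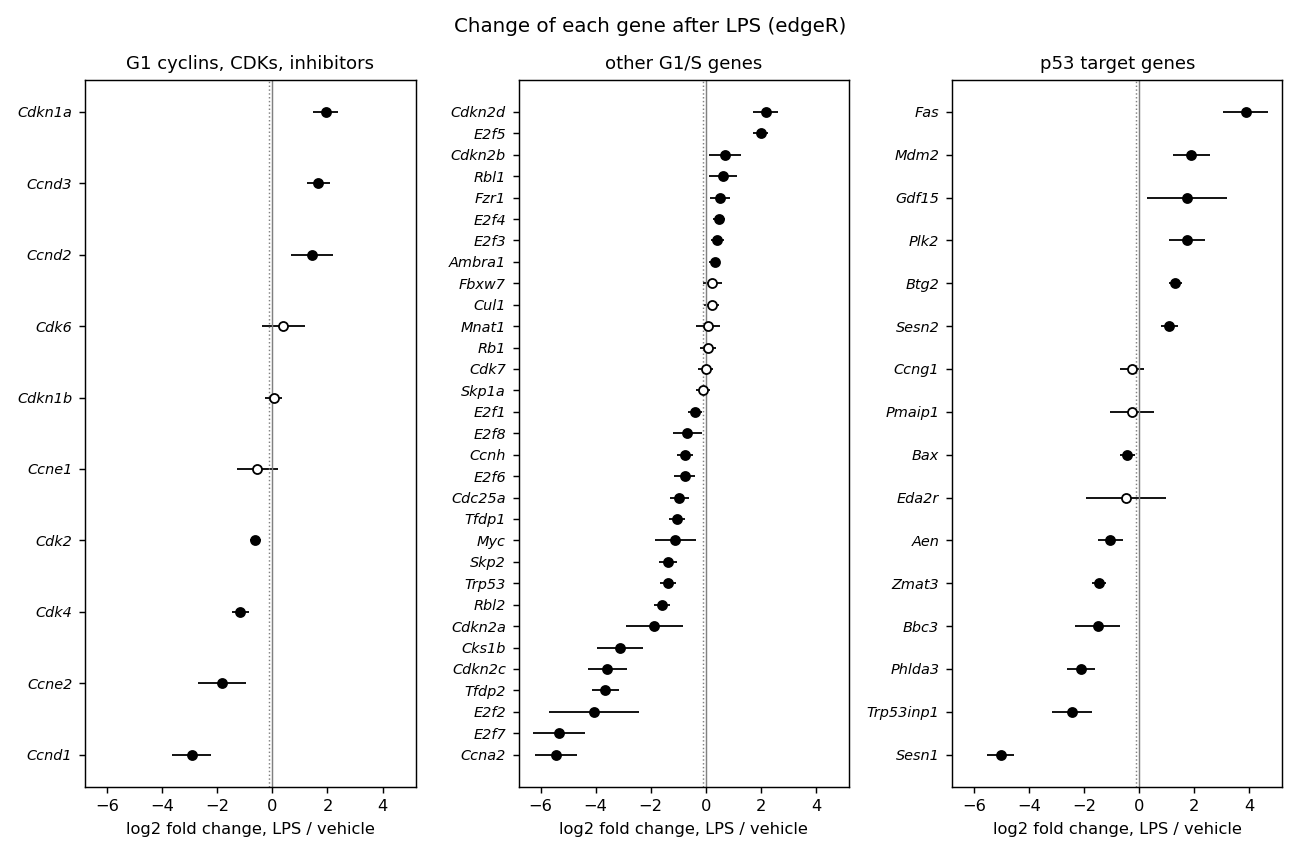
Log2 fold change of each tested gene after LPS (LPS over vehicle, edgeR), for the 10 G1 genes, the other genes of G1/S control and p53 target genes. Points are estimates, bars 95% confidence intervals, filled points those with an adjusted p under 0.05, and the dotted line is the median of all tested genes (−0.11); the genes run from −5.45 for Ccna2 to 3.86 for Fas.

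Because Cdkn1a is a classical target of p53, 17 p53 target genes were followed, of which 16 were tested and Perp had too few counts. With edgeR 6 rose and 7 fell, against 30.3% and 33.8% of all tested genes, and the median log2 fold change was −0.35 against −0.11 over all tested genes. Mdm2, the ubiquitin ligase that degrades p53, was at 135, 108, 123 and 113 CPM in vehicle replicates 1 to 4 and 276, 367, 783 and 354 CPM in LPS replicates 1 to 4. Its LPS libraries lay above its vehicle libraries, and as in Cdkn1a LPS replicate 3 was the highest (log2 fold change 1.90, SE 0.30, adjusted p = 3.79e-04 with edgeR, higher in 4 of 4 pairs). Fas, a death receptor, rose (log2 fold change 3.86, SE 0.37, adjusted p = 1.64e-05 with edgeR, higher in 4 of 4 pairs), as did Plk2, a stress-induced kinase (log2 fold change 1.72, SE 0.29, adjusted p = 5.77e-04 with edgeR, higher in 4 of 4 pairs). Sesn1, a sestrin that restrains mTORC1, fell the most of the list (log2 fold change −5.04, SE 0.22, adjusted p = 1.78e-07 with edgeR, lower in 4 of 4 pairs). Trp53inp1 and Phlda3 fell with log2 fold changes of −2.44 and −2.12, and Bbc3, the gene of the pro-apoptotic PUMA, with −1.52. Gdf15, a secreted stress factor, had overlapping groups (log2 fold change 1.74, SE 0.64, adjusted p = 0.0374 with edgeR, higher in 3 of 4 pairs, range of p over all alternatives 0.00192 to 0.162). It was not called under upper quartile normalization (1.60) or with library totals alone (1.10), nor without LPS replicate 2 (1.61) or 4 (1.22) or without any 1 of the vehicle replicates (1.58 to 1.97). The mRNA of p53 itself, Trp53, named after its values were seen, fell (log2 fold change −1.37, SE 0.13, adjusted p = 1.56e-05 with edgeR, lower in 4 of 4 pairs).

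Genes most like the member with the largest rise and the member with the largest fall were sought among all tested genes, by the root mean square difference of log2 CPM over the 8 libraries after centring each gene on its mean. The closest to Cdkn1a were Psme2, which encodes a subunit of a proteasome activator (0.101), Casp8, which encodes caspase-8 (0.117), and Gm49342 (0.147). Psme2 was at 13.2, 13.5, 18.7 and 12.04 CPM in vehicle replicates 1 to 4 and 59.8, 54.7, 74.9 and 49.2 CPM in LPS replicates 1 to 4, with replicate 3 the highest in both groups, as in Cdkn1a. All exonic bases of Gm49342 also belong to Pnp or Pnp2 on the same strand, so its reads cannot be assigned to it with certainty. The closest to Ccnd1 were Fanci, of the Fanconi anaemia DNA repair pathway (0.181), Sgo2a, which protects cohesion at centromeres (0.195), and Mns1 (0.204), with log2 fold changes of −3.31, −3.19 and −3.31. These values rest on few LPS reads, 6, 9, 16 and 12 counts of Fanci, 14, 19, 34 and 20 of Sgo2a and 1, 1, 6 and 2 of Mns1 in LPS replicates 1 to 4. Fanci was at 2.24, 7.02, 7.49 and 5.93 CPM in vehicle replicates 1 to 4 and 0.359, 0.490, 0.746 and 0.649 CPM in LPS replicates 1 to 4. It shared with Ccnd1 the low value of vehicle replicate 1. This likeness, and that of Psme2 to Cdkn1a, follows from choosing genes by their likeness over the same 8 libraries. Genes on the opposite strand overlap 16.0%, 35.0% and 52.99% of the exonic bases of Fanci, Sgo2a and Mns1.

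Markers of cycling cells were set beside these genes. Of 8 such markers 7 fell with edgeR, against 33.8% of all tested genes, and Pcna did not pass (log2 fold change −0.46, SE 0.19, adjusted p = 0.0564 with edgeR, lower in 4 of 4 pairs). Their CPM summed to 160.2, 295, 344 and 354 in vehicle replicates 1 to 4 and to 24.4, 23.9, 27.1 and 22.9 in LPS replicates 1 to 4. By its mean, Mki67 was the most abundant in vehicle, with Top2a above it in replicate 3, and Pcna was the most abundant in each LPS library. Vehicle replicate 1 had the lowest sum of its group and was also the lowest of it in Ccnd1, Ccne1, Ccne2, Cdk2, Cdk4 and Cdk6. The part of the cycling cells in the changes of the G1 genes was not tested.

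The labelled cell type was checked with 9 microglia markers, which summed to 7483 ± 954 CPM in vehicle and 2197 ± 301 CPM after LPS (SD, n = 4). All 9 were tested and 7 fell, against 33.8% of all tested genes. The most abundant was C1qa in each vehicle library and C1qb in each LPS library. Tmem119, which marks microglia in the intact brain and was named after its values were seen, was low in both groups, at 16.6, 6.05, 8.53 and 6.46 CPM in vehicle replicates 1 to 4 and 8.38, 2.34, 3.92 and 1.62 CPM in LPS replicates 1 to 4. Markers of other brain cells were lower, and several lists moved with the treatment. The 7 markers of oligodendrocyte precursor cells summed to 51.8, 82.4, 18.4 and 81.5 CPM in vehicle replicates 1 to 4 and 20.8, 14.98, 1.87 and 16.9 CPM in LPS replicates 1 to 4, with Ptprz1 the most abundant by its mean in each group but Cspg4 above it in vehicle replicates 1 and 3. Of the 5 tested, 3 fell, against 33.8% of all tested genes. Replicate 3 was the lowest in both groups, Sox10 had 0 counts in both of its libraries, and Gpr17 had 0 counts in every LPS library. Beside these sums, Ccnd1 stood at 121, 293, 298 and 281 CPM in vehicle replicates 1 to 4.

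The counts of markers that rose or fell in the next lists stand against 30.3% and 33.8% of all tested genes. The 8 astrocyte markers summed to 37.9, 46.6, 20.5 and 45.0 CPM in vehicle replicates 1 to 4 and 124, 41.0, 45.5 and 49.3 CPM in LPS replicates 1 to 4, with 3 lower and 1 higher. Aldh1l1 was the most abundant by its mean in vehicle, and Gja1, the 1 that rose, held most of the sum after LPS. The 6 endothelial markers summed to 37.1, 83.4, 54.8 and 82.5 CPM in vehicle and 248, 272, 196 and 268 CPM after LPS, where 3 of 4 tested rose, Flt1 was the most abundant in every library and Cldn5 had 0 counts in every library. The 6 oligodendrocyte markers summed to 184, 174, 205 and 149.7 CPM in vehicle and 212, 225, 188 and 237 CPM after LPS, with Cnp the most abundant by its mean in each group but Mbp above it in vehicle replicates 1 and 4, Mobp at 0 counts in every library, and 1 higher and 1 lower of 4 tested. Sums for the remaining lists stayed small. The 6 fibroblast and mural markers summed to 2.70, 0.761, 4.31 and 0.497 CPM in vehicle and 5.51, 7.52, 21.4 and 5.30 CPM after LPS, with Pdgfrb the most abundant by its mean in vehicle and Dcn, the 1 of 2 tested that rose, making up most of the sum after LPS. The 6 neuron markers summed to 15.8, 16.5, 6.47 and 19.0 CPM in vehicle and 9.34, 3.76, 2.43 and 5.36 CPM after LPS, with Tubb3 the most abundant by its mean in vehicle, Gad1 after LPS, and 3 of 4 tested lower. The part of these cell types in the changes of the G1 genes was not tested.

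To show the regulatory sequence beside the largest rise and beside a fall of a kinase gene, promoters were taken from RefSeq on GRCm38.p6, in a table where 7 of the 10 genes were matched, with 9 start sites, and Ccnd1, Ccnd2 and Ccne2 were not. The 250 bases before each start were searched on both strands for short motifs that were chosen after the sequences had been read. Their frequency was counted in the same window of all 32851 promoters. The E-box CACGTG, the letters that Myc and its relatives recognise, occurred 4 times before Cdk4 and was also found before Cdk6, in 2 of the 9 windows. At least 1 copy was found in 6.02% of all promoters, and 4 or more in 7 promoters, or 0.0213%. The core ACATGT of p53 sites occurred 2 times before the upstream start of Cdkn1a, with 4 bases between the copies, an arrangement found in 4 of all promoters, or 0.0122%. With any spacing, 4.58% of all promoters held at least 1 copy of this core and 0.247% held 2 or more. The E2F letters TTTGGCGC, TTTCCCGC, TTTGCCGC and TTTCGCGC, any of which 1.86% of all promoters held, matched 1 of the 9 windows, that of Cdk2. TGANTCA, the AP-1 motif, and TGACGTCA, the cAMP response element, matched 0 of the 9 and were held by 6.75% and 1.55% of all promoters. The letters GGGCGG of the GC box were in 7 of the 9 windows and in 32.7% of all promoters. Capitals mark the E-box in Cdk4, the p53 core in Cdkn1a and the E2F letters in Cdk2, and none of these matches overlaps a match of another motif searched. A match of letters shows neither binding nor use of the site in these cells.
Cdk4, chr10:127063285-127063534, plus strand: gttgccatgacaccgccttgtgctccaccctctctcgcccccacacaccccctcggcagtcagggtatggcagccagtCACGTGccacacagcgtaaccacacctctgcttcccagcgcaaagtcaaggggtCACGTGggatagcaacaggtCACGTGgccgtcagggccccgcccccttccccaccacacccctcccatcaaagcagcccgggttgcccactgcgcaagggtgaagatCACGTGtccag
Cdkn1a, chr17:29090729-29090978, plus strand: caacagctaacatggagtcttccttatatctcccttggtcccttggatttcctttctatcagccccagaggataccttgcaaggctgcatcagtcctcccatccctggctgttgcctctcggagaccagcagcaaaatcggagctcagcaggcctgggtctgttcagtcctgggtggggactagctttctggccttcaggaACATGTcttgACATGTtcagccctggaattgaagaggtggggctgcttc
Cdk2, chr10:128705052-128705301, minus strand: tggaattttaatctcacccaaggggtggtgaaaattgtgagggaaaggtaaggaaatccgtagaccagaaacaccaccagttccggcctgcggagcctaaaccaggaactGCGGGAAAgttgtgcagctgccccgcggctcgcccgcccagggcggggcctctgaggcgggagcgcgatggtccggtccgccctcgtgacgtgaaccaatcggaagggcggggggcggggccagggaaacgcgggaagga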

How the data were processed

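The deposited table held a read count per gene for each of the 8 libraries, which the authors aligned with GSNAP to GRCm38. The labels name a stranded library kit and the methods of the study another kit (TruSeq RNA v2), which does not keep strand, and the strand and annotation used in counting are not stated. Identifiers were matched to GENCODE vM21 (52489 of 52636 had a symbol), and exonic length is that of the merged exons. Counts were fitted with edgeR 4.0.16 (R 4.3.3): TMM, a count minimum of 10 and a total of 15, the quasi-likelihood F-test of LPS against vehicle, and Benjamini-Hochberg adjustment over all tested genes at 0.05. Tables and plots used Python 3.11.15, pandas 2.3.3 and matplotlib 3.10.9. The fit was run on simulated data in which few genes changed, equally in both directions. That cannot show how the scaling handles the many changes of the real data. The members and lists were chosen with earlier results of these data known. Named genes are the 10 members, at most 8 of each of the G1/S and p53 lists with the largest changes among those that passed with an absolute log2 fold change of at least 1, the 3 genes most like the member with the largest rise and the one with the largest fall, and the most abundant marker of each list, taken by group after the values were seen, and those at 0. Whether equal replicate numbers belong together was checked over the 8382 genes whose average log2 CPM reached 3, by correlating deviations from the group mean: Pearson's r was 0.361, 0.183, 0.183 and 0.130 across genes, which are not independent replicates. Between unequal numbers the highest r were 0.154 (vehicle 2 with LPS 4) and 0.141 (vehicle 4 with LPS 2), both above the 0.130 of replicate 4. All 4 of equal number were over 0.1, so pairs were compared and the replicate number was a block in an alternative. Other alternatives were DESeq2 1.42.0, upper quartile normalization, no filter on low counts, a threshold of 0.01, leaving out each of the 8 libraries, and library totals alone, chosen after seeing the data.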

Additional observations from a re-analysis of the deposited data

Results flagged for a closer look

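In each group of 4 libraries, the highest or lowest value was compared with the other 3. A value is given here when its gap to the nearest of them took up most of the range of the group, by Dixon's criterion for 4 values at 95%. Chance alone picks out about 1 in 20 groups, and 74 groups were checked, of which 8 had such a value. Vehicle replicate 1 had 121 CPM of Ccnd1, and the other vehicle libraries had 281 to 298. Vehicle replicate 3 was above the rest of its group in Ccnd3, with 14.3 CPM against 9.84 to 10.1, and in Cdkn1a, with 322 CPM against 220.5 to 231. Ccna2 in LPS replicate 4 stood at 0.487 CPM, and the other LPS libraries at 0.793 to 0.838. For E2f5, vehicle replicate 4 had 8.73 CPM and the other vehicle libraries 7.36 to 7.54. Bbc3 was at 2.19 CPM in LPS replicate 3, and at 6.37 to 7.14 in the other LPS libraries. The astrocyte markers summed to 124 CPM in LPS replicate 1, and to 41.0 to 49.3 in the others of that group. In LPS replicate 3 the fibroblast and mural markers summed to 21.4 CPM, against 5.30 to 7.52 in the other LPS libraries.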

How the results depend on the processing

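Each of the 10 genes was compared under 14 alternatives, giving 140 values. The threshold of 0.01 was applied to the main fit without refitting, so it could not change a direction. Of the 140 values, 131 kept the direction and the side of the threshold, 1 no longer passed it and 4 changed sign. Another 4 kept their sign and passed the threshold only in the alternative. Cdkn1b with library totals alone, counted among the changes of sign, also passed only there. The changes of sign were those of Cdk6 with library totals alone (−0.31) and of Cdkn1b with library totals alone (−0.64), under upper quartile normalization (−0.11) and in the range over the libraries left out in turn (−0.067 to 0.15), and the cause was not tested. The replicate block, a paired fit, changed the call of 1 of the 10 genes, Ccne1 (−0.61, edgeR adjusted p = 0.0340, range over all alternatives 0.00442 to 0.354). With library totals alone 1988 genes were higher and 8457 lower, and 2 genes of the G1/S list were higher, while 3 of that list were higher under upper quartile normalization and 4 at an adjusted p under 0.01, and the cause was not tested. Without division by exonic length, the shares among the D-type cyclins in vehicle were 85.7% for Ccnd1, 10.0% for Ccnd2 and 4.24% for Ccnd3, and Ccnd1 made up 23.2% after LPS, and the genes differ in length. Of 224 values of the 16 named genes of the lists, 215 kept direction and side of the threshold, and 9, all of Gdf15, no longer passed it. Cdkn2a, Cdkn2b, Myc and Trp53, named after their values were seen, are not among these 16. Of them, Cdkn2b (adjusted p = 0.0423 with edgeR) and Myc (0.0141) do not pass the threshold of 0.01. With 4 cultures per group, small changes such as those of Cdkn1b could be missed: its interval reached 0.37. Some genes rested on 21 counts or fewer in LPS libraries, which limits the precision of their fold changes. Among them were Ccne2 in LPS replicate 4, Cdkn2c in LPS replicate 1, Gdf15 in LPS replicate 3 and Cdkn2a in LPS replicates 2 and 3. The same held for E2f2 and Sgo2a in LPS replicates 1, 2 and 4, and for Ccna2, Cks1b, E2f7, Fanci and Mns1 in every LPS library. Whether reads over bases that genes on opposite strands share were assigned by strand is not known. Total RNA per cell was not measured, so no scaling shows absolute amounts.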
